A study of Mus musculus with 8 samples.

Results

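The genes of glucose sensing and of the ATP-sensitive potassium (KATP) channel in mouse pancreatic islets are Slc2a2, G6pc2, Gpd2, Hadh, Abcc8 and Ucn3. They were taken by gene symbol from a list of 7, and 6 of the 7 were rows of the deposited table of 14126 genes. The remaining one, Kcnj11, which encodes the pore subunit of the channel, was not analysed here.

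In a beta cell, glucose enters through the transporter GLUT2 (Slc2a2) and is phosphorylated, a step that the phosphatase of G6pc2 can undo. Its breakdown yields NADH, which the mitochondrial glycerol 3-phosphate dehydrogenase of Gpd2 passes to the respiratory chain, and ATP, which closes KATP channels built from pore subunits and the sulfonylurea receptor SUR1 (Abcc8). The closed channels depolarise the cell, calcium enters and insulin is released. Hadh encodes a mitochondrial enzyme of fatty acid oxidation that also restrains glutamate dehydrogenase and amino acid-stimulated insulin release. Ucn3 encodes urocortin 3, a peptide made by mature mouse beta cells that prompts somatostatin release from delta cells.

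Bulk RNA sequencing had been run on hand-picked islets of mice aged 7 weeks, of the NOD/ShiLtJ strain, in which diabetes of autoimmune origin arises. The libraries labelled KO came from 4 mice recorded as IRE1αβ-/-, a deletion in beta cells of Ern1, the gene of the endoplasmic reticulum stress sensor IRE1α. The libraries labelled WT came from 4 mice recorded as IRE1αfl/fl, which carry floxed Ern1 alleles. Tamoxifen in corn oil, at 10 mg/ml, is recorded for all animals as intraperitoneal injections over 5 days to activate Cre recombinase. Which promoter drives Cre, and whether the WT mice carried it, is not stated in the labels. Each value is a normalized read count that the authors rounded to a whole number, and the totals of 32024139 to 34858983 per library follow that normalization, so sequencing depth is unknown.

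The total of Ern1 did not check the labels. It stood at 7223, 7390, 6922 and 7216 in KO libraries 1 to 4, against 5549, 5164, 4622 and 4500 in WT libraries 1 to 4, with KO higher by 0.54 ± 0.08 on the log2 scale (SE, limma-trend, adjusted p = 0.00234). A total over a whole gene can hold reads from outside a deleted part, and every direction given here rests on the labels. Libraries 1 and 2 stood apart from libraries 3 and 4 within both labels. With the label in the model, 9.38% of genes were called higher and 6.06% called lower in the set of libraries 3 and 4 than in the set of 1 and 2, and Fos, an immediate early gene, differed by 3.55 on the log2 scale. The labels record no batch. The fits of single genes were also run within both sets, while counts over the lists, ratios and likeness were not.

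Summed values of islet cell markers differed with the label as well. The summed value of 19 beta cell markers lay between 2581451 and 3545841 in KO libraries and between 5433982 and 6081807 in WT libraries. Of the 19, 9 were lower in KO, 1 (Rgs16) was higher and 9 did not pass. Over all genes tested 9.81% were lower and 11.1% higher. Of the beta cell sum the insulin genes form the largest share. Ins1 averaged 828271 ± 173400 in KO and 1877298 ± 100561 in WT (SD, n = 4 each). It was lower in KO by a log2 fold change of -1.20 ± 0.24 (SE, limma-trend with an adjusted p of 0.00794). It did not pass within libraries 1 and 2 (adjusted p = 0.0657). Ins2, a near-identical gene with which Ins1 may share reads, was lower in KO too, by a log2 fold change of -0.98 ± 0.27 (adjusted p = 0.0309, 0.104 with the replicate number as a block, and 0.178 and 0.119 within the sets). The summed value of 15 alpha cell markers lay between 2144406 and 2858222 in KO and between 628234 and 1269916 in WT. Of these markers 8, Gcg among them, were higher in KO, 2 were lower and 5 did not pass. Gcg alone forms the largest share of the alpha cell sum, at 1855041 to 2535429 in KO and 374922 to 1003476 in WT. The 8 delta, PP and epsilon cell markers summed to 277634 to 391841 in KO and to 104022 to 170720 in WT, with 7 higher and none lower. Sst forms the largest share of that sum, at 143884 to 247503 in KO and 70309 to 122607 in WT. In bulk tissue a smaller share of beta cells and less RNA per beta cell cannot be told apart, and the part of these marker shifts in the results on single genes was not tested.

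Sums of acinar, ductal, and stellate and endothelial markers overlapped between the labels, but for each of the 4 library numbers the KO sum was above the WT sum. Whether equal numbers mark true pairs is not known. The acinar sums of KO libraries 1 and 4 (176202 and 259859) were below that of WT library 3 (330740). Acinar markers summed to 176202 to 523445 in KO and 31311 to 330740 in WT, with 2 of 18 higher and 1 lower and a median log2 fold change of 1.59. Over all genes tested, 11.1% were called higher and 9.81% lower, so the count of higher acinar markers is near that share. The acinar calls moved with the fit, to 7 higher with the replicate block, 10 when the fit held a term for set 1 and 2 or 3 and 4 (the set term), 13 without WT library 3 and none without any 1 of KO libraries 2, 3 and 4 or WT libraries 1, 2 and 4. Ductal markers summed to 26791 to 49903 in KO and 16994 to 29866 in WT, with 4 of 11 higher (Spp1, Muc1, Epcam and Prom1, of which Spp1 alone passed without KO library 2). With the block 5 of the ductal markers were higher and with the set term 6. Within libraries 3 and 4 Muc1 and Epcam were not called (limma-trend adjusted p = 0.105 and 0.130). Stellate and endothelial markers summed to 33225 to 53047 in KO and 25094 to 34795 in WT, and none of 14 passed, though all 14 fold changes were positive (median of 0.44 on the log2 scale) and 6 were higher with the block and with the set term. Immune cell markers summed to 5209 to 10667 in KO and 4783 to 16271 in WT, with 1 of 13, the B cell gene Cd79a, lower. Cd79a was not called within libraries 1 and 2 (limma-trend adjusted p = 0.0669). The immediate early genes had sums of 22810 to 193574 in KO and 11765 to 364804 in WT, and none of 20 passed, against 2 higher with the block and 3 with the set term. Within libraries 3 and 4, however, Fos and Btg2 were called lower in KO. Their log2 fold changes there were -1.17 and -0.67 (limma-trend adjusted p = 0.00658 and 0.00993). Within libraries 1 and 2 they were 0.97 and 0.16, and neither was called (adjusted p = 0.0638 and 0.526). The part of these shifts in the results on single genes was not tested.

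**Figure D1:**
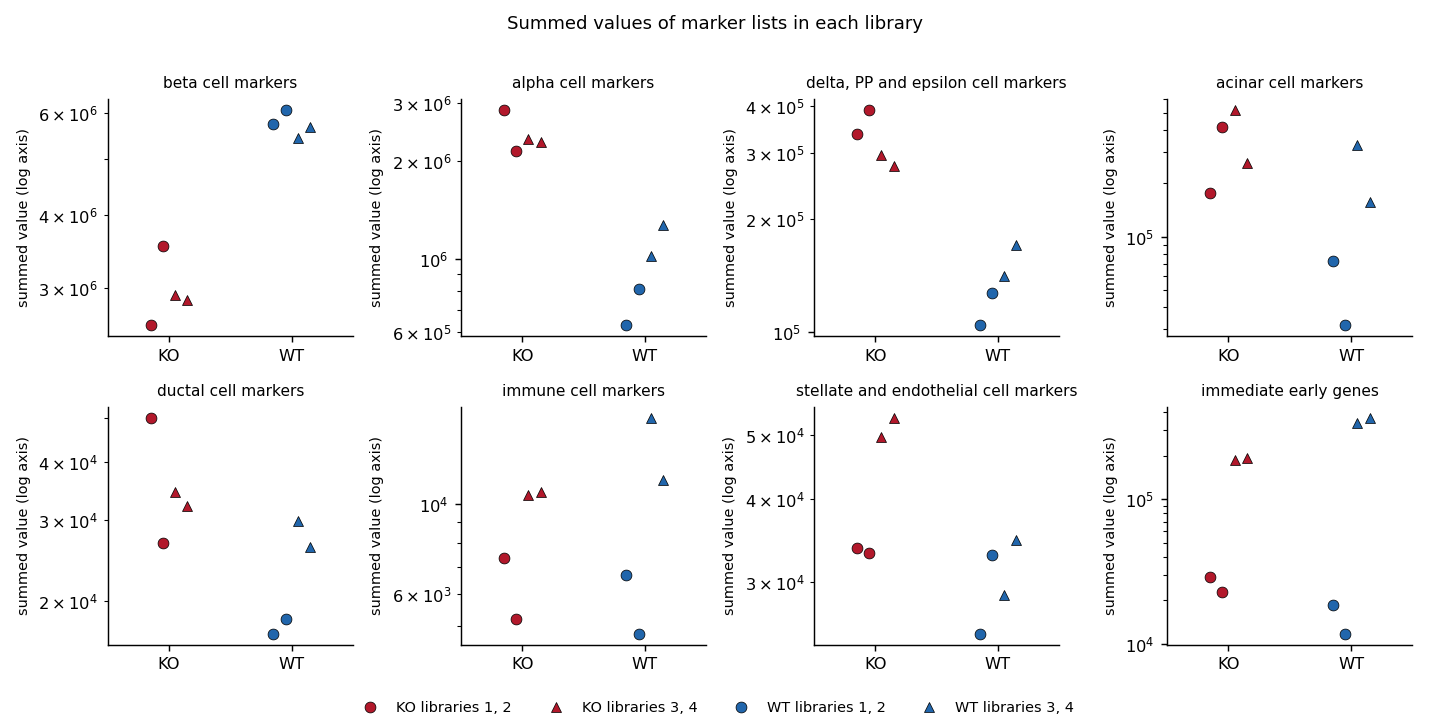
Summed normalized values of each marker list in the 4 KO and the 4 WT libraries, on a log axis, 1 point per library. The beta cell sums of the KO libraries lie below those of all WT libraries and the alpha and delta, PP and epsilon sums lie above them, while the KO and WT sums of the other 5 lists overlap.

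Across the glucose sensing genes, 5 of 6 were lower in KO than in WT and none was higher. Slc2a2, G6pc2, Gpd2, Hadh and Ucn3 fell, and Abcc8 did not pass the threshold. The test was limma-trend on log2(value + 1) with Benjamini-Hochberg adjustment over the 14121 genes tested, and a gene was called at an adjusted p under 0.05. The error given with a log2 fold change is the SE of that fit, and that given with a mean is the SD of 4 libraries. Among all genes tested, 9.81% (1385) were called lower and 11.1% (1562) higher. With libraries rescaled to totals without hormone and mitochondrial genes, 1017 were lower and 1746 higher, and the same 5 of the 6 were lower. The same 5 genes had every KO library below every WT library, an arrangement found in 12.3% of all genes. Within libraries 1 and 2 all 5 were called lower (10.9% of all genes), and within libraries 3 and 4, with the replicate number as a block and in the authors' deposited table it was 4 of 6 each time, without G6pc2 (11.4%, 11.7% and 13.1% of all genes). The genes were listed with earlier results of these data known, so these counts describe them and are not independent evidence. The median log2 fold change of the 6 was -0.84, beside -0.00082 over all genes tested.

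**Figure D2:**
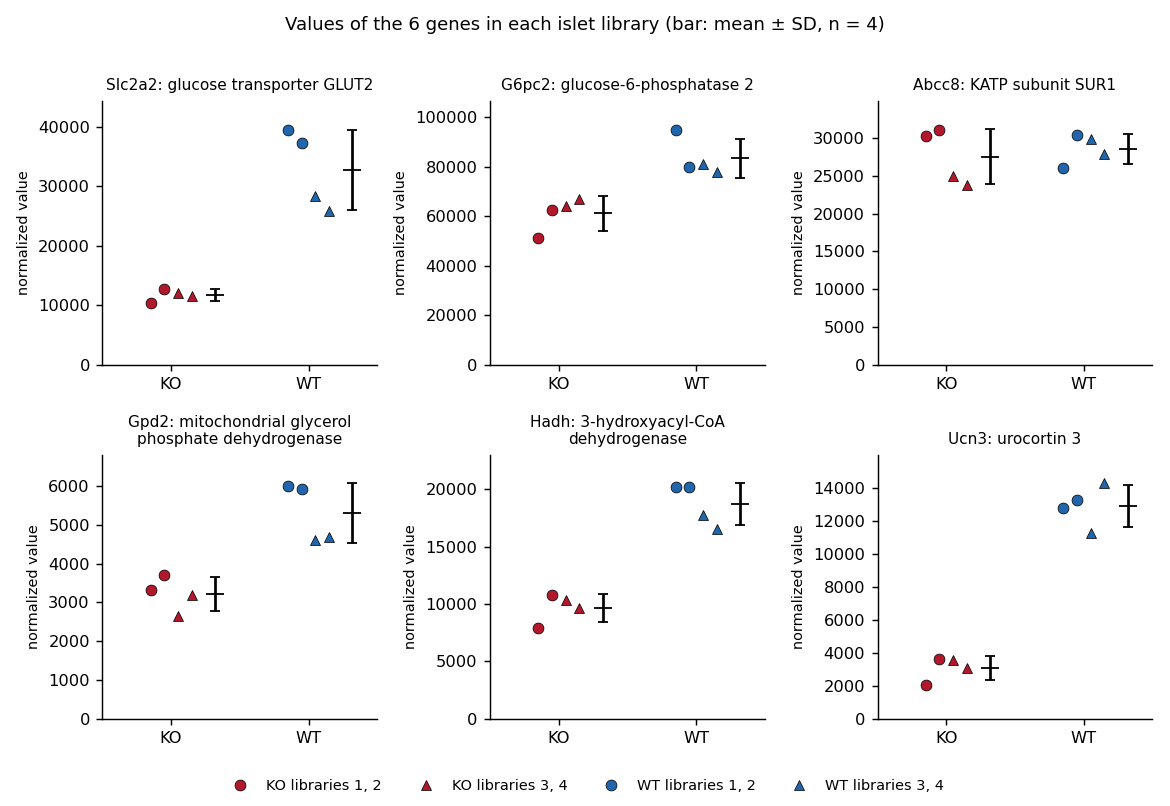
Normalized values of Slc2a2, G6pc2, Gpd2, Hadh, Abcc8 and Ucn3 by library, KO to the left of WT, with bars for the mean and SD of 4 libraries. Every KO point lies below every WT point in 5 of the 6 panels, and in the Abcc8 panel the groups overlap.

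The 250 bases upstream of the annotated start are shown for 4 of the genes that fell, to show which of 4 motifs they hold there. They are RefSeq sequences of build GRCm38.p6, written 5′ to 3′ on the gene's strand. RefSeq promoter windows were matched for 5 of the 6 genes, and those printed start where the gene starts in the GENCODE annotation of the same build. Capitals mark matches to TAAT (a homeodomain core), CATCTG (an E-box of the type found in insulin enhancers), TGCTGAC (a MAF site core) or CCACG (part of the ER stress response element). Both strands were searched, so a match on the other strand appears as the reverse complement. No printed window holds TGCTGAC, and matches to different motifs do not overlap in them. The windows are chr3:28697653-28697902 (plus strand) for Slc2a2, chr2:69210823-69211072 (plus) for G6pc2, chr3:131272102-131272351 (minus) for Hadh and chr13:3945350-3945599 (minus) for Ucn3.
Slc2a2: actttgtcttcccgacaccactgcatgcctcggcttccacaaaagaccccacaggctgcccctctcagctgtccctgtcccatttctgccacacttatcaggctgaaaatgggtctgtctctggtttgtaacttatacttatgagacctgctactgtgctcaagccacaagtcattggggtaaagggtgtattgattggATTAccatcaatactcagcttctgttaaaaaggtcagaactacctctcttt
G6pc2: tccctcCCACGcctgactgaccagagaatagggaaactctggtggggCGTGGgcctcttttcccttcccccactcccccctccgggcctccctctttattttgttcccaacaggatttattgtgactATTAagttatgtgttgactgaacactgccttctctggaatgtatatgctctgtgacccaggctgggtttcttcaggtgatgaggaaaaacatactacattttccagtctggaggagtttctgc
Hadh: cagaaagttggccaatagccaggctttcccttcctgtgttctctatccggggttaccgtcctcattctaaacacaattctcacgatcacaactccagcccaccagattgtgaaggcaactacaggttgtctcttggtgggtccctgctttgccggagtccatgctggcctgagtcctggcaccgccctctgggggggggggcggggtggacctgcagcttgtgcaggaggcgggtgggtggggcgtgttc
Ucn3: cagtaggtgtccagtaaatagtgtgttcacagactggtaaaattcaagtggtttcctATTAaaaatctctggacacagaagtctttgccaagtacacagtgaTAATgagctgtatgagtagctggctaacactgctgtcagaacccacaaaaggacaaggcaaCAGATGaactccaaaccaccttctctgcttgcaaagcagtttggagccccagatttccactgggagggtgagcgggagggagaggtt

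The matches in the printed windows are as follows. The Slc2a2 window holds TAAT once, 51 bases before the start. That of G6pc2 holds TAAT 123 bases and CCACG 244 and 203 bases before the start. That of Ucn3 holds TAAT 193 and 148 bases and CATCTG 87 bases before the start, and the Hadh window holds none of the 4 motifs. RefSeq windows at other starts are not printed. A second one of G6pc2, before a start at 69219949, holds TAAT 3 times, CATCTG 2 times and TGCTGAC 2 times. Its CATCTG matches lie 78 and 34 bases, and its TGCTGAC matches 122 and 28 bases, before that start. Which of these G6pc2 starts the islets use was not tested, so the printed window need not be the active one. The windows of Gpd2 hold TAAT 3 times in one and CCACG 1 time in the other. Of 27025 promoter windows of the same length, 55.3% hold TAAT, 14.5% CATCTG, 3.72% TGCTGAC and 28.2% CCACG. A match is a description of letters, and its absence says only that these letters are not in this window.

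Slc2a2, the transporter by which mouse beta cells take up glucose, fell in KO. The gene (ENSMUSG00000027690) lies on GRCm38 chromosome 3, from 28697903 to 28731359 on the plus strand. Its values were 10371, 12803, 12048 and 11649 in KO libraries 1 to 4, against 39574, 37226, 28349 and 25844 in WT libraries 1 to 4. The highest KO value is below the lowest WT value, and the spread is wider in WT, where libraries 1 and 2 are the high ones. The means were 11718 ± 1017 in KO and 32748 ± 6675 in WT (SD, n = 4 each). The fitted log2 fold change was -1.46 ± 0.15 (SE, 95% interval from -1.79 to -1.13, adjusted p = 0.000355 by limma-trend), which puts KO at 36.3% of WT (28.8% to 45.6%). Within libraries 1 and 2 the fold change was -1.74 on the log2 scale, and within libraries 3 and 4 it was -1.19. The difference of 0.54 ± 0.16 between those sets had an unadjusted p of 0.00893 and did not pass over all genes (adjusted p = 0.152, limma-trend interaction term). By size of fall Slc2a2 ranked 104 of the 14121 genes.

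The other genes of glucose uptake and phosphorylation moved in both directions. Of 14 counted, 2 were higher, 5 lower and 7 did not pass, with a median log2 fold change of -0.37. The shares over all genes tested were 11.1% higher and 9.81% lower. Slc37a4, the transporter that carries glucose 6-phosphate into the endoplasmic reticulum where G6pc2 acts, fell to 1515 ± 158 in KO, against 2809 ± 354 in WT (log2 fold change of -0.89 ± 0.11, adjusted p = 0.00112). Pfkfb2, whose product makes the fructose 2,6-bisphosphate that speeds glycolysis, fell by 0.93 ± 0.12 on the log2 scale (adjusted p = 0.00120). The other 3 that fell were Slc2a5, Slc2a8 and Pfkfb4, and the calls of Slc2a8 and Pfkfb4 ended when 1 of several libraries was left out (adjusted p up to 0.0804 and 0.0864).

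Hk1, a high-affinity hexokinase gene that beta cells normally keep low, rose to 549.5 ± 41.6 in KO, against 269 ± 102 in WT (log2 fold change of 1.11 ± 0.26, adjusted p = 0.0170). Pfkfb3 rose by 1.26 ± 0.23 on the log2 scale (adjusted p = 0.00553). The alpha cell marker sum was higher in KO too, as given above, and its part in the rises of Hk1 and Pfkfb3 was not tested. Slc2a1, the gene of the transporter GLUT1, averaged 395.5 ± 35.6 in KO and 495 ± 138 in WT and did not pass (adjusted p = 0.330). Within libraries 3 and 4 Slc2a1 was called lower in KO, with a log2 fold change of -0.56 (limma-trend adjusted p = 0.0189). Within libraries 1 and 2 it was -0.01 and not called (adjusted p = 0.967).

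G6pc2, an islet-specific glucose 6-phosphatase, fell by less. It lies on chromosome 2, from 69211073 to 69227841 on the plus strand (ENSMUSG00000005232). The values were 51124, 62692, 64197 and 66945 in KO libraries 1 to 4, against 95099, 80042, 81122 and 77785 in WT libraries 1 to 4. KO library 1 is the lowest of all and WT library 1 the highest, and the groups do not overlap. KO averaged 61239.5 ± 6970 and WT 83512 ± 7849 (SD, n = 4 each). The log2 difference was -0.45 ± 0.12 (adjusted p = 0.0285, limma-trend), with KO at 73.2% of WT (60.6% to 88.3%). The call ended with the replicate number as a block (adjusted p = 0.0556), within libraries 3 and 4 (log2 fold change of -0.28, adjusted p = 0.163) and without any 1 of KO libraries 1, 2 and 3 or WT libraries 1, 2 and 3 (adjusted p from 0.0501 to 0.0704). In the authors' deposited table its log2 fold change was -0.45 with an FDR of 0.202. G6pc3, the ubiquitous relative of G6pc2, averaged 769 ± 68.2 in KO and 806 ± 29.2 in WT and did not pass (adjusted p = 0.614).

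Of 18 glycolysis genes that follow glucose 6-phosphate, 2 rose, 2 fell and 14 did not pass, and their median log2 fold change was -0.06. Both counts are near the shares over all genes tested, 11.1% called higher and 9.81% called lower. Pfkp, a phosphofructokinase gene, rose by 1.00 ± 0.10, and Eno3, an enolase gene best known from muscle, fell by 0.86 ± 0.19 on the log2 scale. Pgam1, a phosphoglycerate mutase gene, fell to 3785.5 ± 142 in KO, against 4930 ± 373 in WT (log2 fold change of -0.38 ± 0.08, adjusted p = 0.00817), and was not called within libraries 3 and 4 (adjusted p = 0.0723). Ldha, the lactate dehydrogenase subunit that beta cells normally keep low, was higher by 0.68 ± 0.17 on the log2 scale (adjusted p = 0.0233), a call that ended without KO library 3 or 4 or WT library 1 or 2 (up to 0.0658). Sums of markers of other cell types were higher in KO too, and their part in this rise was not tested.

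Gpd2, the mitochondrial arm of the glycerol phosphate shuttle, fell in KO. It lies on chromosome 2, from 57237635 to 57370719 on the plus strand (ENSMUSG00000026827). Values of 3328, 3704, 2657 and 3194 in KO libraries 1 to 4 stood against 6008, 5926, 4610 and 4676 in WT libraries 1 to 4. The groups do not overlap, and in both of them library 3 is the lowest. Means were 3221 ± 433 in KO and 5305 ± 766 in WT (SD, n = 4 each), for a log2 fold change of -0.72 ± 0.13 (adjusted p = 0.00548), with KO at 60.8% of WT (49.6% to 74.5%). Within libraries 1 and 2 it was -0.76 and within libraries 3 and 4 -0.67. Gpd2 was the 1 gene of the 6 that differed between the sets themselves, being lower in libraries 3 and 4 by 0.32 ± 0.08 on the log2 scale (adjusted p = 0.0213).

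None of the other 9 shuttle genes passed the test, and their log2 fold changes ran from -0.25 to 0.23. Gpd1, the cytosolic partner enzyme of Gpd2, averaged 846 ± 85.2 in KO and 831.5 ± 85.8 in WT (log2 fold change of 0.03 ± 0.10, adjusted p = 0.891). Gpd1l, a relative of Gpd1, had an adjusted p of 0.325. Mdh1 and Slc25a12, a dehydrogenase and a carrier of the malate-aspartate shuttle, had log2 fold changes of -0.25 ± 0.12 and 0.02 ± 0.08 (adjusted p = 0.165 and 0.900). Within libraries 1 and 2 Mdh1 was called lower in KO, with a log2 fold change of -0.50 (limma-trend adjusted p = 0.0144). Within libraries 3 and 4 that of Mdh1 was -0.005 (adjusted p = 0.979). With the replicate block 1 of the 9 was lower, and without WT library 4 it was 2.

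Downstream of the shuttles, 33 genes of pyruvate entry and mitochondrial coupling gave 5 higher, 9 lower and 19 that did not pass (median log2 fold change of -0.16). Over all genes tested 11.1% were higher and 9.81% lower. Without KO library 1 the lower calls came to 5, as Mpc1, Idh3g, Suclg1 and Slc25a1 missed the threshold, and with the set term to 12. Pcx, the pyruvate carboxylase that replenishes the citric acid cycle in beta cells, fell to 1442 ± 258 in KO, against 4477 ± 467 in WT (log2 fold change of -1.64 ± 0.13, adjusted p = 0.000112). Fh1, the fumarase gene, fell by 1.43 ± 0.12 on the log2 scale. Me3, a mitochondrial malic enzyme gene, rose by 1.87 ± 0.14 and Pdk4, a kinase that inhibits pyruvate dehydrogenase, by 1.45 ± 0.25 on the log2 scale.

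Hadh, the short-chain 3-hydroxyacyl-CoA dehydrogenase that is abundant in beta cells, fell in KO. The gene (ENSMUSG00000027984) lies on chromosome 3, from 131233419 to 131272101 on the minus strand. It had 7902, 10744, 10340 and 9635 in KO libraries 1 to 4, against 20220, 20219, 17783 and 16565 in WT libraries 1 to 4. KO library 1 is the lowest, and the groups are far from overlapping. The averages were 9655 ± 1255 in KO and 18697 ± 1827 in WT (SD, n = 4 each). The log2 fold change was -0.96 ± 0.12 (SE, adjusted p = 0.00084), with KO at 51.5% of WT (42.9% to 61.7%), and it was -1.13 within libraries 1 and 2 and -0.78 within libraries 3 and 4.

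Among the other fatty acid oxidation genes none was called lower. Of 22 measured, 2 rose and 20 did not pass, with a median log2 fold change of -0.10 and a lowest of -0.49. The count that rose is near the 11.1% of all genes tested that were called higher. With the replicate block 2 rose and 2 fell. Hadha and Hadhb, the long-chain counterparts of Hadh, both had adjusted p above the threshold (0.266 and 0.539). Eci2, an enoyl-CoA isomerase gene, rose by 0.45 ± 0.08 on the log2 scale (adjusted p = 0.00446). Cpt1a, which admits fatty acids to mitochondria, was higher by 0.45 ± 0.12 on the log2 scale (adjusted p = 0.0261), a call that ended without KO library 1, 3 or 4 or WT library 1 (up to 0.0720) and within libraries 1 and 2 (0.0948). Glud1, the glutamate dehydrogenase that the Hadh protein restrains, was named after its values were seen. It had 4911, 4474, 4484 and 4778 in KO libraries, against 3784, 3962, 4020 and 3783 in WT libraries, a log2 fold change of 0.26 ± 0.06 (adjusted p = 0.0212) whose call ended without KO library 1 or 4 or WT library 2 (up to 0.0602).

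**Figure D3:**
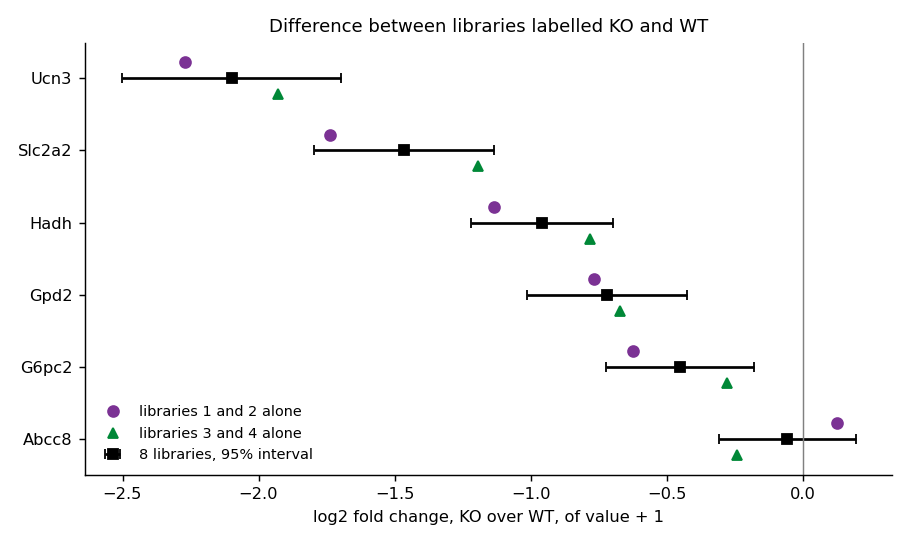
Log2 fold changes of KO over WT for the 6 genes over all 8 libraries, as squares with 95% intervals, and within libraries 1 and 2 (circles) and libraries 3 and 4 (triangles), without intervals. Ucn3 lies farthest below 0 at -2.10 and Slc2a2 next at -1.46, while the Abcc8 interval from -0.31 to 0.20 spans 0.

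Abcc8, the regulatory SUR1 subunit of the KATP channel, is expressed in alpha and delta cells as well as in beta cells. It lies on chromosome 7, from 46104523 to 46180033 on the minus strand (ENSMUSG00000040136). Its values were 30328, 31142, 25055 and 23764 in KO libraries 1 to 4, against 26058, 30355, 29834 and 27895 in WT libraries 1 to 4. The groups overlap, and KO libraries hold both the highest and the lowest value. Means of 27572 ± 3705 in KO and 28535.5 ± 1962 in WT (SD, n = 4 each) gave a log2 difference of -0.06 ± 0.11 (SE, 95% interval from -0.31 to 0.20, adjusted p = 0.764). The interval puts KO between 80.7% and 114.5% of WT, so a fall as large as the fitted fall of any of the other 5 genes lies outside it. Within libraries 1 and 2 the log2 fold change was 0.13 and within libraries 3 and 4 it was -0.24, and neither passed (adjusted p = 0.455 and 0.144). The difference of -0.37 ± 0.15 between the sets had an unadjusted p of 0.0360 and did not pass over all genes (adjusted p = 0.234).

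The vascular-type KATP subunits did not pass. Kcnj8, a pore subunit gene of pericytes and smooth muscle, averaged 93 ± 52.4 in KO and 83.3 ± 41.2 in WT (adjusted p = 0.902), and Abcc9, its regulatory partner, 455.5 ± 117 in KO and 389.8 ± 85.8 in WT (adjusted p = 0.510). Among 25 genes of membrane depolarisation and calcium entry, 4 rose, 2 fell and 19 did not pass (median log2 fold change of 0.12). Of all genes tested 11.1% were higher and 9.81% lower, and the count that fell is near the latter share. Trpm5, a calcium-activated cation channel gene, fell to 829.8 ± 188.0 in KO, against 5539 ± 888 in WT (log2 fold change of -2.76 ± 0.19, adjusted p = 7.77e-05). Scn3a, a sodium channel gene also used by alpha cells, rose to 2699 ± 385 in KO, against 881.5 ± 48.4 in WT (log2 fold change of 1.60 ± 0.11, adjusted p = 7.12e-05). Cacna2d2, a calcium channel accessory subunit gene, rose by 1.52 ± 0.21 and Kcnk3, a background potassium channel gene, by 1.28 ± 0.19 on the log2 scale. The alpha cell marker sum moved in the same direction as these rises, as given above, and its part in them was not tested.

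**Figure D4:**
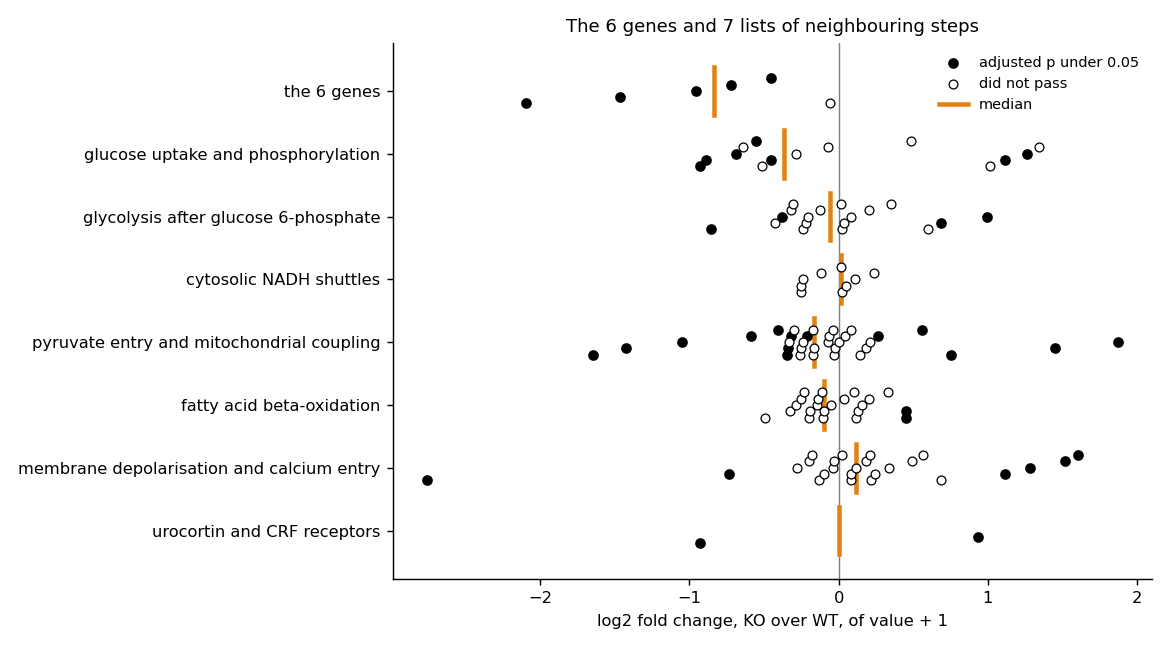
Log2 fold changes of KO over WT for the 6 genes and every gene counted in the 7 pathway lists, 1 point per gene, filled where the gene was called and open where it did not pass, with a line at each median. The NADH shuttle genes lie between -0.25 and 0.23 with none called, while the glucose uptake and phosphorylation genes have a median of -0.37.

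Ucn3, the maturity marker that signals to delta cells, fell the most of the 6. It lies on chromosome 13, from 3940688 to 3945349 on the minus strand (ENSMUSG00000044988). Values of 2023, 3607, 3568 and 3092 in KO libraries 1 to 4 stood against 12767, 13276, 11231 and 14256 in WT libraries 1 to 4. The lowest WT library is well above the highest KO library, and KO library 1 is the lowest. The means were 3072.5 ± 738 in KO and 12882.5 ± 1263 in WT (SD, n = 4 each), with a log2 fold change of -2.10 ± 0.18 (adjusted p = 0.000151) and KO at 23.3% of WT (17.6% to 30.9%). It was -2.27 within libraries 1 and 2 and -1.93 within libraries 3 and 4, and ranked 38 of 14121 by size of fall.

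The receptors of the urocortin family were called in opposite directions. Crhr2, the receptor through which urocortin 3 acts, had 88, 134, 100 and 78 in KO libraries, against 41, 51, 69 and 46 in WT libraries. Its groups do not overlap (log2 fold change of 0.93 ± 0.24, adjusted p = 0.0250), and the call ended without KO library 2 or 3 or WT library 1 or 2 (up to 0.0639) and within libraries 3 and 4 (0.64 on the log2 scale, adjusted p = 0.157). Crhr1, which binds corticotropin-releasing hormone, had 81, 196, 114 and 103 in KO libraries, against 241, 249, 183 and 227 in WT libraries. KO library 2 exceeds WT library 3, and the log2 fold change of -0.93 ± 0.25 (adjusted p = 0.0317) lost its call without KO library 1, 3 or 4 or WT library 1, 2 or 4 (up to 0.0818) and within libraries 1 and 2 (-0.95, adjusted p = 0.122). Sst, the somatostatin gene of the delta cells, rose by 1.18 ± 0.23 on the log2 scale (adjusted p = 0.00722), with 0.71 and no call within libraries 3 and 4 (adjusted p = 0.0777).

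The genes were also set against each other inside each library, where the scaling of libraries plays no part. These ratios were chosen after the data were seen and carry no test. The share of all genes whose ratios to Abcc8 or G6pc2 are likewise separated was not computed. The ratio of Slc2a2 to Abcc8 was 0.342, 0.411, 0.481 and 0.490 in KO libraries, against 1.52, 1.23, 0.950 and 0.927 in WT libraries. Every KO ratio is below every WT ratio, and this holds as well for Gpd2, Hadh and Ucn3 over Abcc8, with mean log2 differences of -0.66, -0.90 and -2.04. The fitted log2 fold changes of Gpd2, Hadh and Ucn3 were -0.72, -0.96 and -2.10, and that of Abcc8 was -0.06. Ratios to Abcc8 thus largely restate the falls of the single genes and are not separate evidence. G6pc2 over Abcc8 overlapped, at 1.69, 2.01, 2.56 and 2.82 in KO libraries, against 3.65, 2.64, 2.72 and 2.79 in WT libraries. With G6pc2 as the denominator the ratio of Slc2a2 was 0.203, 0.204, 0.188 and 0.174 in KO libraries, against 0.416, 0.465, 0.350 and 0.332 in WT libraries, so Slc2a2 was lower relative to G6pc2 in every KO library. Ucn3 and Hadh over G6pc2 did not overlap either, with mean log2 differences of -1.65 and -0.51, and Gpd2 over G6pc2 overlapped.

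**Figure D5:**
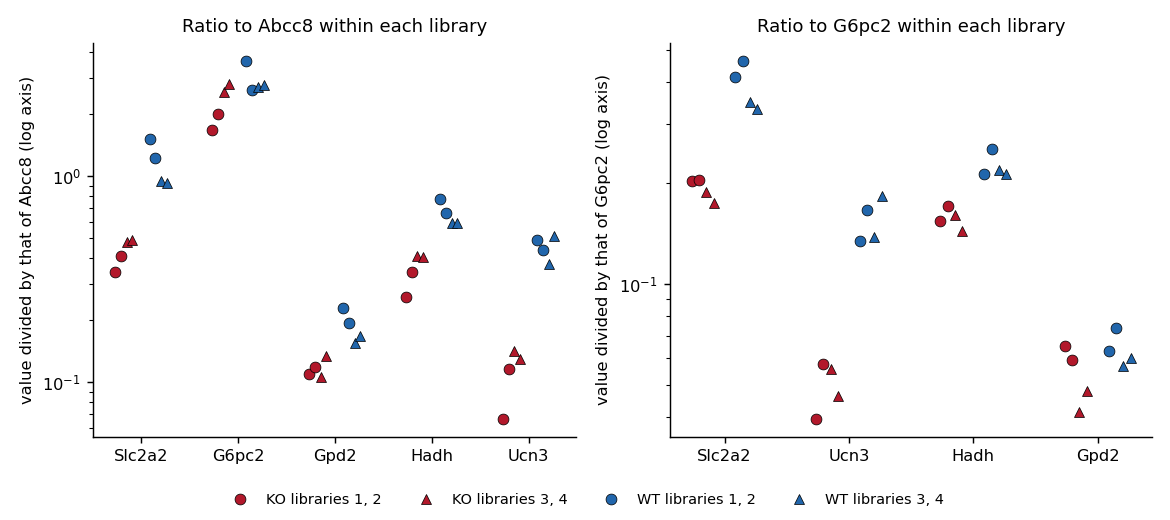
Ratios of normalized values to that of Abcc8 (left panel) and of G6pc2 (right panel) within each library, KO to the left of WT, on log axes, 1 point per library. The Slc2a2 to Abcc8 points of KO lie between 0.342 and 0.490, below the WT points between 0.927 and 1.52, while the G6pc2 to Abcc8 points overlap.

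On a scale of normalized value per kilobase of exon, the order of levels changed with the label. The length is the union of all annotated exons, such as 5755 bases for Slc2a2 and 1478 for Ucn3. It is not the length of the transcripts expressed, so the order between genes depends on this choice. G6pc2 stood first in both groups, at 31023 ± 3531 in KO and 42306 ± 3976 in WT (SD, n = 4 each). In KO Abcc8 came next at 3408 ± 458, followed by Ucn3 at 2079 ± 499, Slc2a2 at 2036 ± 177 and Hadh at 1940 ± 252, which do not differ from each other beyond their spread. In WT Ucn3 came next at 8716 ± 854, followed by Slc2a2 at 5690 ± 1160, Hadh at 3757 ± 367 and Abcc8 at 3527 ± 242, and the last 2 lie within their spread. Gpd2 stood last in both, at 492 ± 66.2 in KO and 810 ± 117 in WT.

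KO library 1 had the lowest value of all 8 libraries for 4 of the 6 genes, namely Slc2a2, G6pc2, Hadh and Ucn3. Without it their log2 fold changes were still negative, and all but G6pc2 passed. The summed beta cell markers were lowest in that library too, at 2581451, and the alpha cell markers highest, at 2858222. It also had the highest ductal marker sum, at 49903, and the largest share of its total in genes encoded in mitochondria. That share was 22.7%, 21.1%, 20.8% and 17.6% in KO libraries 1 to 4, against 20.5%, 17.9%, 14.8% and 17.2% in WT libraries 1 to 4, higher in KO for each number. Most of it was mitochondrial ribosomal RNA, at 20.3%, 18.7%, 18.5% and 15.6% of the total in KO libraries 1 to 4. In WT libraries 1 to 4 that RNA made up 18.4%, 15.9%, 13.2% and 14.9%. The part of all this in the 4 values was not tested. For none of the 6 genes did the fold change differ between libraries 1 and 2 and libraries 3 and 4 after adjustment, where 0.0991% of all genes did.

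The genes whose pattern over the 8 libraries was most like each of the 6 were found by the root mean square difference of centred log2 values, among 11277 genes with a mean of at least 100. For Slc2a2 they were Sytl4 and Ociad2 (differences of 0.111 each), for Hadh Pfkfb2 and Cln6 (0.0531 and 0.0689), and for Gpd2 Slc12a7 and Mtch1 (0.101 and 0.107). For G6pc2 they were Gosr2 and Miga1 (0.0486 and 0.0561), for Abcc8 Pcdh1 and Stoml1 (0.0353 and 0.0487), and for Ucn3 Fer1l6 and Mreg (0.210 and 0.254). The values for Ucn3 are the widest. The measure is not scaled to the size of a gene's own changes, so closeness cannot be compared between the 6 genes by it. The libraries share their label and set, so such likeness is a description of 8 points.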

How the data were processed

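Bulk RNA libraries of islets from 8 mice were grouped by title and genotype into KO and WT, 4 each, the series' design text giving 4 mice per group. The submitters' processing notes, in no order, list edgeR 3.16.15, RSEM 1.2.31, STAR 2.5.3a and bcl2fastq 2.20 as tools of the authors, and build GRCm38.p5. The sources used here give neither strandedness nor settings. The authors deposited 1 table of 14126 genes. Its library columns are normalized counts rounded by the authors to whole numbers, treated as a score and not as raw counts, and no count test was run. The same table, deposited by the authors, holds their log2 fold change and log2 CPM, a likelihood-ratio score, and a p-value and its adjusted form.

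The values were read as log2(value + 1) and fitted with limma-trend (limma 3.58.1, R 4.3.3) over the 14121 genes that reached a value of 1 in 4 or more libraries. P-values were adjusted by Benjamini-Hochberg over them, at a threshold of 0.05, as the design provided for normalized values. Fold changes are on this scale and are understated for low genes. The fit was tested on simulated data, drawn with independent noise for each library. Those data held no effect shared by set or library number, so the test does not cover such effects. Ratios were computed with Python 3.11.15. Depth is unknown, so precision rests on the spread between 4 libraries. Coordinates and exon lengths are from GENCODE M21 (GRCm38), whose chromosomes those of GRCm38.p5 share. Value per kilobase uses the union of exons.

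Libraries of the same number deviated together from their group's mean. Across 13081 genes with a mean above 50 the correlations were 0.327, 0.583, 0.664 and 0.381. All exceed 0.1, so the numbers, which come from the sample titles, were treated as pairing and a replicate block was fitted as an alternative. Libraries of the same set with unlike numbers correlated as well, at 0.433 to 0.516, so number and set are not told apart by this, and those of unlike sets at -0.612 to -0.318. Genes, lists and members were chosen with earlier results of these data known. Named genes are the members, up to 4 called genes of largest change per list with a mean of at least 20 or else the 2 most abundant, 15 fixed genes, and the 2 genes nearest each member. Genes named to complete a count fall outside this rule. Some planned results are not reported here, and the genes they need were left out of the lists.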

Additional observations from a re-analysis of the deposited data

Results flagged for a closer look

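Among the genes named here, 6 groups of 4 libraries held 1 library whose distance from its nearest neighbour was large against the range of its group (a ratio above 0.829, which chance alone exceeds in about 1 group of 20, and 140 groups were examined). They are values only, and no explanation was tested. Gosr2, the gene most like G6pc2, had 3911 in KO library 1, with the other KO libraries between 5039 and 5262. Slc37a4, the glucose 6-phosphate transporter gene, had 2279 in WT library 4, with the other WT libraries between 2971 and 3010. Eno3 had 477 in WT library 3, with the others between 300 and 327. Glp1r, the receptor gene of the incretin GLP-1, had 5353 in WT library 4, with the others between 6623 and 6713. Ins2, an insulin gene, had 3357417 in WT library 2, with the others between 3044173 and 3096540. Sst had 122607 in WT library 4, with the others between 70309 and 74438. None of Slc2a2, G6pc2, Gpd2, Hadh, Abcc8 and Ucn3 held such a library in either group.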

How the results depend on the processing

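The counts of 5 lower and 0 higher of the 6 genes stayed between 4 and 5 lower, and 0 higher, under the 20 alternatives run. These were another pseudocount, filter, scaling or trend, the replicate block, either set of libraries alone or as a term, each library left out, and the authors' deposited table. Where it was 4, G6pc2 was the gene lost. Slc2a2, Gpd2, Hadh and Ucn3 passed under all 20. G6pc2 had log2 fold changes from -0.50 to -0.37 with 1 library left out. Abcc8 changed sign in libraries 1 and 2 alone (0.13) and without KO library 4 (0.0114), and with 1 library left out ran from -0.12 to 0.01, never passing. Over all genes, and with the set (1 and 2, or 3 and 4) as a term, 2400 were higher and 2102 lower, against 1562 and 1385. With 1 library left out, 1121 to 1684 were higher and 863 to 1599 lower, the lowest counts of lower genes being 863 without WT library 2 and 909 without KO library 4, and the 14 genes whose fold change differed between the sets became 1 to 146. With totals that left out hormone and mitochondrial genes, 1746 were higher and 1017 lower. The replicate block, pairing libraries by number, called 1999 genes higher and 1649 lower and 4 of the 6 genes lower, ending only the call of G6pc2 among them. Among the lists, the block and the set term called 7 and 10 acinar markers higher (against 2), 6 and 6 stellate and endothelial (0), 5 and 6 ductal (4), 2 and 3 immediate early (0), and 4 and 4 of glucose uptake (2). They called 1 and 1 of the shuttles lower (0) and 2 and 3 of fatty acid oxidation (0), and the set term 12 of pyruvate entry and coupling (9) and 4 alpha cell markers (2). With 1 library left out, acinar markers higher ran from 0 to 13, ductal from 1 to 5 and pyruvate genes lower from 5 to 10. The planned ratio of Abcc8 to Kcnj11 was not run. Depth per library is unknown, so whether it limits the low genes Crhr1, Crhr2 and Kcnj8 was not tested.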
